A study of Mus musculus with 6 samples.

Results

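The circadian clock genes described here are 10 core clock and output genes, *Arntl*, *Clock*, *Per1*, *Per2*, *Per3*, *Cry1*, *Cry2*, *Nr1d1*, *Nr1d2* and *Dbp*. They were taken by gene symbol from the deposited RNA-Seq table, and all 10 were found among its 15280 genes. The study sequenced 6 libraries from 3 parous female BK5.ATF3 mice, with 1 mammary tumor (T) and 1 adjacent normal mammary gland (M) from each animal. All mice carried the ATF3 transgene under the BK5 (bovine keratin 5) promoter, which drives it in basal epithelial cells, so the glands are transgenic too and no wild-type animal was analysed here. The females had raised 1 litter, most animals had a tumor by an age of 6 to 12 months, and tissue was taken when the tumor was 1.5 cm long. The background strain, the exact age and the hour of death of each mouse are not given in the sources used here. The gland libraries are named M11035, M11640 and M9232 and the tumor libraries T11035, T11640 and T9232, where the number is that of the mouse, and values are given in this order of mice. The 2 libraries of a mouse share its time of death, so each tumor was compared with the gland of the same animal as well as group with group (n = 3 each).

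The mammalian clock is a feedback loop of transcription that runs in nearly every tissue. ARNTL (also called BMAL1) and CLOCK bind E-boxes as a pair and activate the *Per*, *Cry*, *Nr1d* and *Dbp* genes, the PER and CRY proteins then repress that pair, and NR1D1 and NR1D2 (REV-ERBα and β) repress *Arntl* through RORE sites. Transcripts of *Arntl* and of *Dbp* therefore peak at opposite times of day, and the mammary gland is among the tissues in which these genes cycle.

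Expression is given in CPM, the fragments on a gene scaled to edgeR's effective library size. Glands M11035, M11640 and M9232 had 4750989, 6127715 and 7372155 fragments on genes, and tumors T11035, T11640 and T9232 had 5116883, 7806908 and 6948233. A floor of 3 fragments corresponded to between 0.393 CPM in T11640 and 0.610 CPM in M11035. All 10 clock genes had fragments in every library. *Dbp* had between 3 and 16 fragments in a library, and the other 9 genes had between 39 and 1614. Floors and intervals of single libraries cover counting error only, since PCR copies are not independent molecules. Differences were tested by limma (two-sided) on log2(CPM + 0.5) between the groups, with no term for the mouse. A fit with the mouse as a block was an alternative. The p-values were adjusted by the Benjamini-Hochberg method for the 15280 genes of the table. The thresholds of a call were 0.05 for the adjusted p and 2 for the fold change, and SE is the standard error of a log2 fold change.

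Of the 10 clock genes, 6 were called different between tumors and glands, against 28.2% of all genes. *Per2*, *Per3*, *Cry2*, *Nr1d1* and *Dbp* were lower in the tumors (5 of 10, against 13.7% of all genes), and *Arntl* was higher (1 of 10, against 14.5%). *Nr1d2* passed the adjusted p with a smaller fold change, and *Per1*, *Cry1* and *Clock* did not pass. Without the fold threshold, 7 of the 10 genes passed, against 41.2% of all genes. The median log2 fold change, tumor minus gland, was -0.90 over the 10 genes and -0.0028 over all genes. In 7 of the 10 genes the tumor was lower than the gland in every mouse (33.3% of all genes), and in 1 it was higher in every mouse (34.2%). The 3 tumors lay all below or all above the 3 glands in 7 of the 10 genes (54% of all genes), with 6 below (26.3%) and 1 above (27.6%). With 3 libraries a tissue, the smallest p of an exact permutation test is 0.1, so each call borrows its variance from the other genes through limma. In tissue RNA of this kind, fewer cells of a type and less RNA per cell cannot be told apart. Without both libraries of the mouse of T11640, 4 genes were called and 3 of them were lower, since *Nr1d1* and *Dbp* lost their calls. The count over all genes fell as well in that fit, to 3180 called genes from 4309 with all libraries.

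**Figure D1:**
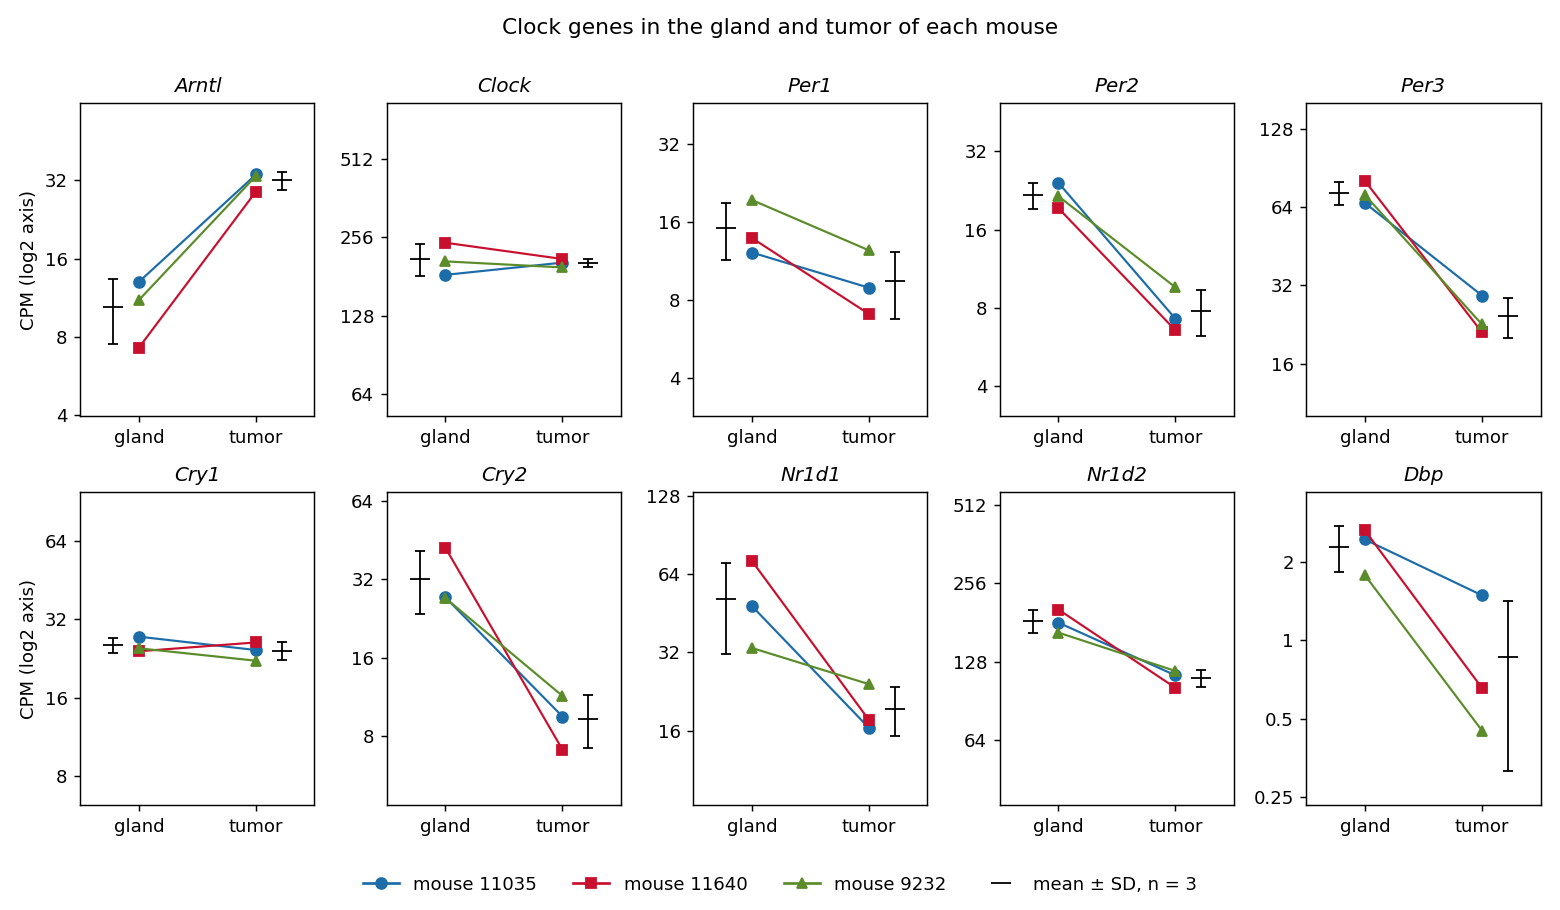
CPM of the 10 clock genes (y axis, log2 scale, the same number of log2 units in each panel) in the gland and the tumor, with 1 line per mouse and the mean and SD of the 3 mice of a tissue in black. The lines of *Per2*, *Per3*, *Cry2*, *Nr1d1*, *Nr1d2* and *Dbp* slope down in all 3 mice with no overlap between tissues, those of *Per1* slope down with an overlap, those of *Arntl* slope up, and those of *Clock* and *Cry1* slope both ways.

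*Arntl* and *Clock* are the activators. *Arntl* encodes the partner of CLOCK that is needed for rhythmicity, and its transcript was at 13.0, 7.27 and 11.1 CPM in glands M11035, M11640 and M9232 and at 33.7, 29.0 and 33.3 CPM in the tumors of the same mice. Every tumor was above every gland, and the lowest value of each tissue was that of the mouse of T11640. The mean, 10.5 ± 2.92 CPM in glands (SD, n = 3), rose to 32.0 ± 2.61 CPM in tumors (log2 fold change 1.60, SE 0.23, limma adjusted p = 0.00086). Within the mice, the tumor exceeded the gland by 1.34, 1.92 and 1.54 on the log2(CPM + 0.5) scale. *Clock*, which encodes the other protein of the activator pair, was at 184, 244 and 207 CPM in the glands and at 205, 212 and 196 CPM in the tumors. The tumor values lay inside the range of the glands, and the tumor was the higher of the pair in the mouse of T11035 and the lower in the other mice. The log2 fold change of *Clock* was -0.04 with a 95% interval from -0.37 to 0.29 (limma adjusted p = 0.840), and it turned to 0.065 without gland M11640.

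The period genes encode the PER repressors, which act together with the CRY proteins. *Per2* was at 24.2, 19.3 and 21.5 CPM in glands M11035, M11640 and M9232 and at 7.26, 6.55 and 9.59 CPM in their tumors. No tumor reached the lowest gland. The mean fell from 21.7 ± 2.44 to 7.80 ± 1.59 CPM (SD, n = 3) (log2 fold change -1.43, SE 0.21, limma adjusted p = 0.000954), and the differences within the mice were -1.67, -1.49 and -1.12. *Per3*, the member of the family that is least needed for the rhythm itself, was at 66.3, 80.6 and 71.1 CPM in the glands and at 29.2, 21.1 and 22.6 CPM in the tumors. The groups were again apart, with M11640 the highest gland and T11640 the lowest tumor. The mean of *Per3* fell from 72.7 ± 7.29 to 24.3 ± 4.31 CPM (log2 fold change -1.57, SE 0.18, limma adjusted p = 0.000211). *Per1*, which also responds quickly to hormones and other stimuli, was at 12.2, 13.9 and 19.4 CPM in the glands and at 8.93, 7.08 and 12.4 CPM in the tumors. Tumor T9232 was slightly above gland M11035, so the groups overlapped, while within each mouse the tumor was the lower. The differences of *Per1* within the mice were -0.43, -0.92 and -0.62. Its log2 fold change of -0.66 (standard error 0.27) had an adjusted p of 0.0822 (limma), and 0.0438 with the mouse as a block, and in neither fit did it reach the fold of 2.

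The cryptochromes encode the main repressors of the ARNTL and CLOCK pair. *Cry2* was at 27.2, 42.3 and 27.1 CPM in glands M11035, M11640 and M9232 and at 9.49, 7.08 and 11.4 CPM in the tumors. All tumors were below all glands, with M11640 the highest gland and T11640 the lowest tumor. The mean fell from 32.2 ± 8.73 to 9.32 ± 2.16 CPM (SD, n = 3) (log2 fold change -1.73, SE 0.25, limma adjusted p = 0.000866), the lowest of the 10 genes. Within the mice the differences were -1.47, -2.50 and -1.21. *Cry1* was at 27.4, 24.1 and 24.8 CPM in the glands and at 24.4, 26.1 and 22.2 CPM in the tumors. The groups overlapped, and the tumor was the lower in the mice of T11035 and T9232 and the higher in that of T11640. The log2 fold change of *Cry1* was -0.07 with a 95% interval from -0.44 to 0.30 (limma adjusted p = 0.759), so a 2-fold change lay outside the interval. The difference between the 2 cryptochromes was not itself tested. On the opposite strand, exons of *Cry2* overlap those of *D930015M05Rik* over 295 bp, which had at most 2.60 CPM in any library.

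*Nr1d1* and *Nr1d2* encode the heme-binding nuclear receptors that repress *Arntl*. *Nr1d1* was at 48.2, 71.9 and 33.2 CPM in glands M11035, M11640 and M9232 and at 16.4, 17.6 and 24.1 CPM in the tumors. The glands spread widely, and the mouse of T9232, with the lowest gland and the highest tumor, had the smallest difference. The mean fell from 51.1 ± 19.5 to 19.4 ± 4.17 CPM (SD, n = 3) (log2 fold change -1.33, SE 0.29, limma adjusted p = 0.00624). The differences within the mice were -1.53, -2.00 and -0.45. Without the mouse of T11640 the log2 fold change of *Nr1d1* was -0.99 and the adjusted p 0.0688 (limma; 0.000152 to 0.0688 over the alternatives), which ended the call. Exons of *Nr1d1* overlap those of *Thra* on the opposite strand over 263 bp. The strand setting of the counting is not given in the sources used here, so fragments of the shared stretch cannot be told apart. *Thra*, a thyroid hormone receptor gene, was at 12.6, 13.4 and 10.3 CPM in the glands and at 8.0, 7.99 and 11.1 CPM in the tumors. *Nr1d2* was at 181, 203 and 166 CPM in the glands and at 113, 101 and 118 CPM in the tumors. Every tumor lay below every gland and within every mouse the tumor was the lower. Its mean was 183 ± 18.9 CPM in glands and 111 ± 8.45 CPM in tumors (log2 fold change -0.72, SE 0.14, limma adjusted p = 0.00402), a change that did not reach the fold of 2. The adjusted p of *Nr1d2* rose to 0.0702 without the mouse of T11640 (limma), the highest over the alternatives.

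*Dbp* encodes a PAR bZIP activator that drives rhythmic output genes through D-boxes, and it was the least abundant of the 10. It was at 2.44, 2.64 and 1.78 CPM in glands M11035, M11640 and M9232 and at 1.49, 0.655 and 0.450 CPM in the tumors. These values stand for 12, 16 and 13 fragments in the glands and 8, 5 and 3 in the tumors. All tumors were below all glands, but the exact 95% Poisson interval of tumor T11035, 0.643 to 2.93 CPM, contained the values of all 3 glands. That of tumor T9232, 0.0927 to 1.31 CPM, lay below the gland values, and *Dbp* was at the floor there. The log2 fold change on the log2(CPM + 0.5) scale was -1.09 (SE 0.38, limma adjusted p = 0.0467), a scale that understates the change of low genes. The call was kept in 5 of 19 alternative fits. The adjusted p was 0.0548 with the mouse as a block, 0.0639 in edgeR's quasi-likelihood test and 0.107 in DESeq2, and ran from 0.0188 to 0.262 over the alternatives. It was also lost without gland M11035 (0.105), gland M11640 (0.126), gland M9232 (0.0556), tumor T11640 (0.126) or tumor T9232 (0.130) and without the mouse of T11640 (0.262) or that of T9232 (0.140). *Dbp* overlaps *Sphk2* on the opposite strand over 491 bp of exons, and *Sphk2*, a sphingosine kinase gene, had more fragments, with 21.8, 11.1 and 15.2 CPM in the glands and 18.4, 16.9 and 24.7 CPM in the tumors. The level of *Dbp* is therefore uncertain.

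Because *Arntl* and *Dbp* peak at opposite times, the difference of the pair on the log2(CPM + 0.5) scale was read in each library. *Dbp* minus *Arntl* was -2.20, -1.31 and -2.35 in glands M11035, M11640 and M9232 but -4.10, -4.67 and -5.15 in the tumors. Every tumor was below every gland, with means of -1.95 ± 0.56 and -4.64 ± 0.53 (SD, n = 3), which differ by -2.69. The added 0.5 is more than the CPM of *Dbp* in T9232, so these values understate the ratio of the CPM, and the difference was -3.08 with 0.1 added and -2.40 with 1 added. With *Nr1d1* in place of *Dbp*, an alternative chosen after the data were seen because of the few fragments of *Dbp*, the values were 1.85, 3.22 and 1.54 in the glands and -1.02, -0.71 and -0.46 in the tumors. Here the sign itself changed in each mouse, from more *Nr1d1* than *Arntl* CPM in the gland to less in the tumor, and the means differ by -2.93. Gland M11640 was the highest of the 6 libraries in each of these differences. The samples were taken once from each mouse, so a shift of phase and a change of mean level cannot be told apart.

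Levels of different genes were compared as CPM per kilobase of annotated exons. In the glands *Nr1d2* was highest with 36.6 ± 3.76 CPM per kb (SD, n = 3), followed by *Clock* with 24.0 ± 3.45 and *Nr1d1* with 16.4 ± 6.23. Next came *Cry1* (8.44 CPM per kb), *Per3* (7.56), *Cry2* (5.10), *Per2* (3.71), *Arntl* (3.57), *Per1* (2.69) and *Dbp* (0.777). The ranges of the 3 glands overlapped between *Clock* and *Nr1d1*, *Cry1* and *Per3*, *Per2* and *Arntl*, and *Arntl* and *Per1*, and the other neighbors were apart. In the tumors *Clock* (23.1 CPM per kb) and *Nr1d2* (22.1) overlapped at the top, and *Arntl* was the next with 10.9 ± 0.893 CPM per kb. *Cry1* (8.03) and *Nr1d1* (6.195) followed with overlapping ranges, then *Per3* (2.53), *Per1* (1.68), *Cry2* (1.47) and *Per2* (1.34), each overlapping the next, and *Dbp* (0.294). *Arntl* thus held rank 8 in the glands and rank 3 in the tumors, while *Cry2* went from rank 6 to 8 and *Per2* from rank 7 to 9.

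The spread among the mice was described by the SD of log2(CPM + 0.5) over the 3 libraries of a tissue. Among the glands it was largest for *Nr1d1* (0.55), *Arntl* (0.41) and *Cry2* (0.36) and smallest for *Cry1* (0.10). Gland M11640 held the lowest *Arntl*, *Per2* and *Cry1* and the highest *Nr1d1*, *Nr1d2*, *Cry2*, *Per3*, *Clock* and *Dbp* of the 3 glands. Among the tumors the SD was largest for *Dbp* (0.55), followed by *Per1* (0.39), and smallest for *Clock* (0.05). The median SD of the 10 genes was 0.23 in glands and 0.25 in tumors, and over the 14712 genes that averaged 1 CPM or more it was 0.28 and 0.24. The glands had the larger SD in 5 of the 10 genes and in 8521 of those 14712. Whether the hour of sampling contributed to this spread was not tested.

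Another 25 genes of the clock machinery were listed by role, of which 8 were called, against 28.2% of all genes. Of the 25, 5 were called higher and 3 lower in the tumors, against 14.5% and 13.7% of all genes. The median log2 fold change of the 25 genes was 0.21. Among the activator paralogs, *Arntl2*, which can stand in for *Arntl*, was at 2.24, 3.96 and 3.28 CPM in glands M11035, M11640 and M9232 and at 16.2, 12.7 and 12.7 CPM in the tumors. It was higher in every tumor than in every gland, with (log2 fold change 1.99, SE 0.26, limma adjusted p = 0.000454). *Npas2*, the paralog of *Clock*, lay between 2.03 and 5.06 CPM in all libraries and was not called.

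*Rora* and *Rorb* encode receptors that activate *Arntl* at the same RORE sites that the NR1D receptors repress. *Rora* had 48.1 ± 7.05 CPM in glands and 31.0 ± 6.00 CPM in tumors (SD, n = 3) with no overlap, and its log2 fold change of -0.63 passed the adjusted p (0.0333, limma) but not the fold. The adjusted p of *Rora* was 0.0557 in limma without the trend, and ran from 0.0178 to 0.119 over the alternatives. *Rorb* was between 0.393 and 4.46 CPM, with its highest values in gland M11640 and tumor T11035, and its sign changed when libraries of the mouse of T11640 were left out.

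The PAR bZIP factors HLF and TEF share D-boxes with DBP, and NFIL3 represses at the same sites. *Hlf* was at 69.1, 87.5 and 120 CPM in glands M11035, M11640 and M9232 and at 4.84, 6.82 and 5.84 CPM in the tumors. It had the largest fall of the listed clock genes, with (log2 fold change -3.85, SE 0.24, limma adjusted p = 9.52e-06). *Tef* went from 38.6, 31.4 and 27.1 CPM in the glands to 9.68, 9.44 and 13.6 CPM in the tumors (log2 fold change -1.53, limma adjusted p = 0.000792). *Nfil3* went the other way, from 6.91, 5.12 and 3.69 CPM in the glands to 10.05, 11.01 and 19.9 CPM in the tumors. All tumors were above all glands, and the difference was smallest in the mouse of T11035 and largest in that of T9232. The log2 fold change of *Nfil3* was 1.28 (SE 0.33, limma adjusted p = 0.0136). That call was lost without tumor T9232 (log2 fold change 0.98), without its whole mouse (0.77, adjusted p = 0.0996) and without the mouse of T11640 (adjusted p = 0.0786), within a range of 0.00268 to 0.0996 over the alternatives.

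Of 4 other repressors of the ARNTL and CLOCK pair, 2 were called (against 28.2% of all genes), in opposite directions. *Bhlhe40* was at 86.8, 85.4 and 57.7 CPM in the glands and at 120, 204 and 199 CPM in the tumors, and *Bhlhe41*, its close relative, was at 18.9, 14.2 and 14.8 CPM in the glands and at 5.58, 4.06 and 8.24 CPM in the tumors. The groups did not overlap in either gene. The log2 fold change was 1.16 (SE 0.25, limma adjusted p = 0.00594) for *Bhlhe40* and -1.39 (SE 0.28, limma adjusted p = 0.0043) for *Bhlhe41*. The call of *Bhlhe40* was lost without gland M9232 (log2 fold change 0.97), without its whole mouse (0.86) and without the mouse of T11640 (1.12, adjusted p = 0.0576, the highest of 0.000103 to 0.0576 over the alternatives). *Cipc*, listed under its older symbol *2310044G17Rik*, had 49.4 ± 6.02 CPM in glands and 33.7 ± 3.02 CPM in tumors (SD, n = 3), a log2 fold change of -0.54 that passed the adjusted p (0.028, limma) but not the fold. The adjusted p of *Cipc* rose to 0.122 without the mouse of T11035 (limma), the highest of 0.0209 to 0.122 over the alternatives. *Ciart*, listed as *Gm129*, had between 1.303 and 5.90 CPM with overlapping groups, a log2 fold change of -0.48 (0.20 without the mouse of T11035), and was not called.

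Of 8 kinase genes that phosphorylate clock proteins, 2 were called, both higher, against 28.2% of all genes called and 14.5% called higher. In 7 of the 8 the tumor was higher in every mouse (34.2% of all genes). In 6 of the 8 all tumors lay above all glands (27.6% of all genes). *Csnk1e*, which encodes a casein kinase that marks PER proteins for degradation, was at 12.2, 12.4 and 16.1 CPM in the glands and at 31.4, 35.3 and 35.4 CPM in the tumors (log2 fold change 1.30, limma adjusted p = 0.000686). *Csnk1a1* was at 214, 234 and 239 CPM in the glands and at 461, 498 and 432 CPM in the tumors (log2 fold change 1.02, limma adjusted p = 0.000363). Its adjusted p held in the 19 alternative fits, and the log2 fold change dropped under 1 without gland M11035 (0.97), tumor T11640 (0.96), the whole mouse of T11035 (0.97) or that of T11640 (0.98). *Csnk2a2* and *Csnk2b*, of casein kinase 2, passed the adjusted p with log2 fold changes of 0.72 and 0.57. *Csnk1d*, the close paralog of *Csnk1e*, had 63.4 ± 2.70 CPM in glands and 81.8 ± 3.45 CPM in tumors, with no overlap and an adjusted p of 0.0575 (limma). Its exons overlap *Slc16a3* on the opposite strand over 831 bp, so its level is uncertain. *Csnk2a1*, *Gsk3a* and *Gsk3b* had log2 fold changes of 0.21, -0.07 and 0.35 and were not called, and that of *Gsk3a*, whose exons also overlap an opposite gene, turned positive without tumor T11640. None of 4 genes of the ubiquitin pathway, *Fbxl21*, *Btrc*, *Fbxw11* and *Usp7*, was called by limma over all 6 libraries, against 28.2% of all genes. Nor was any called by edgeR or DESeq2 (0 of 4 each), and 1, *Fbxl21*, had an unadjusted limma p under 0.05. *Fbxl21* had at most 25 fragments in a library and none in T11640, and it was called lower without tumor T11035 (log2 fold change -1.69, adjusted p = 0.0478, limma) and without its whole mouse (-1.98, adjusted p = 0.0379), against 0.068 with all libraries and 0.0379 to 0.3 over the alternatives. *Timeless* and *Tipin*, a pair of replication fork genes, had log2 fold changes of 0.17 and 0.29 and were not called, and that of *Timeless* turned to -0.094 without tumor T11035.

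**Figure D2:**
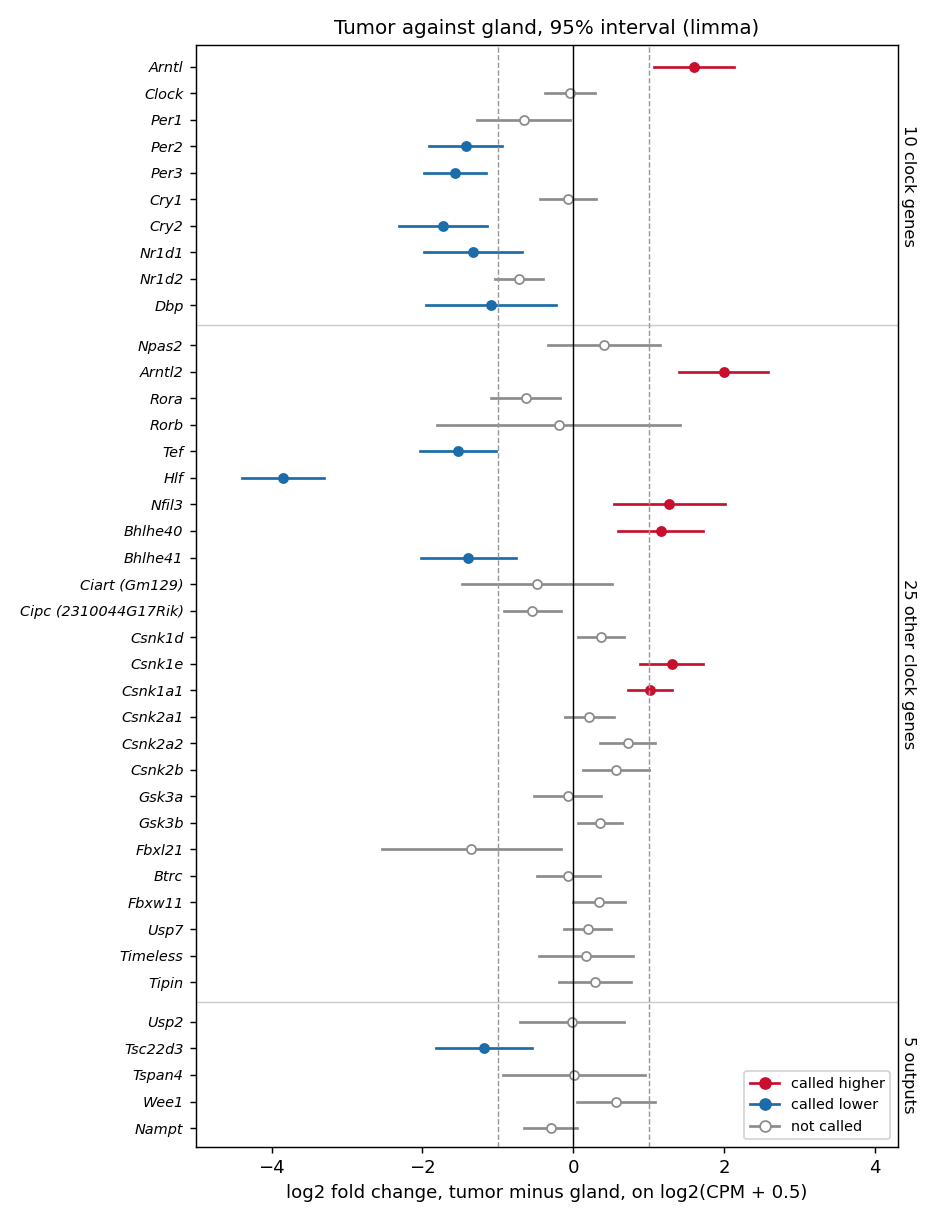
Log2 fold change of tumor minus gland (x axis) with its 95% interval from limma for the 10 clock genes, 25 other clock genes and 5 rhythmic outputs, with dashed lines at a fold of 2. Filled points were called, and among the clock genes they run from *Hlf* at -3.85 to *Arntl2* at 1.99.

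Of 5 genes listed as rhythmic outputs in many tissues, 1 was called, against 28.2% of all genes. *Tsc22d3*, which encodes the glucocorticoid-induced leucine zipper GILZ, was at 35.8, 39.0 and 62.0 CPM in glands M11035, M11640 and M9232 and at 15.8, 16.5 and 27.3 CPM in the tumors. The mouse of T9232 was the highest in each tissue, and the differences within the mice were alike at -1.15, -1.21 and -1.17. The log2 fold change was -1.18 (SE 0.28, limma adjusted p = 0.00974), and the call was lost without gland M9232 (log2 fold change -0.94) and without the mouse of T11640 (adjusted p = 0.0799, within 0.001 to 0.0799 over the alternatives). *Usp2* was at 21.1, 14.4 and 10.9 CPM in the glands and at 10.2, 16.9 and 18.4 CPM in the tumors, so that the tumor was the lower in the mouse of T11035 and the higher in the other mice. *Tspan4* was at 2.03, 4.29 and 4.51 CPM in the glands and at 1.86, 4.32 and 4.94 CPM in the tumors, close to each other within each mouse. *Usp2* and *Tspan4* overlap opposite genes and are uncertain. *Wee1*, a kinase gene of the G2 checkpoint, and *Nampt*, of NAD synthesis, had log2 fold changes of 0.56 and -0.30 and were not called (adjusted p = 0.0779 and 0.148, limma).

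The promoters of the clock genes were searched for the sites through which the loop is known to act, and the matches are shown because these are the letters that the proteins of the loop bind. RefSeq promoters on GRCm38.p6, from 250 bases before to 50 after a gene's start, were found for 9 of the 10 genes, with 13 promoters in all, and not for *Per2*. The letters searched, on both strands, were the E-box CACGTG, the E′-box CACGTT, the RORE core TAGGTCA and the D-box TTATGTAA. Of 32851 promoters of this length, 7.15% held an E-box, 4.68% an E′-box, 2.61% a RORE core and 0.938% a D-box. Of the 13 promoters of the members, 2 held an E-box, 3 an E′-box, 1 a RORE core and 1 a D-box, each in a different gene for a given site. The matches stand in capitals on the strand of the gene, and AACGTG is the E′-box read from the other strand. No match says only that these letters are not in the window, as for *Clock*, *Nr1d2* and *Dbp*, and a match is not a shown site.
*Per1*, E-box 166 bases before the start, chr11:69098772-69098799, plus strand: gcacccaagtcCACGTGcagggatgtgt
*Cry1*, E-box 60 bases before the start, chr10:85185098-85185125, minus strand: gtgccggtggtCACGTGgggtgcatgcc
*Cry1*, E′-box 79 bases before the start, chr10:85185117-85185144, minus strand: cacacttcagaAACGTGaggtgccggtg
*Cry2*, E′-box 166 bases before the start, chr2:92434219-92434246, minus strand: cacatggtgggAACGTGagggggcggag
*Nr1d1*, E′-box 28 bases before the start, chr11:98775389-98775416, minus strand: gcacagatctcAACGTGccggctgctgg
*Per3*, D-box 158 bases before the start, chr4:151044805-151044834, minus strand: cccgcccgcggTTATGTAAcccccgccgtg
*Per3*, D-box 205 bases before the start, chr4:151044852-151044881, minus strand: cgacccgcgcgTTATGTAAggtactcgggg
*Arntl*, RORE core after the start of 1 of its 2 promoters, chr7:113207530-113207558, plus strand: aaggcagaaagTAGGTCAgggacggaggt
*Per1*, with an E-box, and *Cry1*, with an E-box and an E′-box, were not called, while *Cry2* and *Nr1d1*, with an E′-box each, were lower in the tumors. Among the other clock genes, promoters were found for 20 of 25, and 8 held a match. The E-box was in *Tef* and *Bhlhe41*, called lower, and in *Cipc* and *Ciart*, not called, the E′-box in *Rorb*, and the D-box in *Timeless* and *Csnk2b*, none of the 3 called. The RORE core was in *Nfil3* alone, called higher, 12 bases before its start, and the stretch printed ends at the start. Of the outputs, *Tspan4* held an E-box.
*Nfil3*, RORE core, chr13:52981040-52981062, minus strand: gcgctcggaacTGACCTActaac

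On the build of the deposited table (mm9), *Per1* (chromosome 11, 68908719 to 68923462) and *Nr1d1* (chromosome 11, 98629246 to 98636647) lie on 1 chromosome, as do *Arntl* (chromosome 7, 120350979 to 120457636) and *Dbp* (chromosome 7, 52960458 to 52965525). The other members lie on chromosomes of their own, with *Per2* on 1, *Per3* on 4, *Cry1* on 10, *Cry2* on 2, *Clock* on 5 and *Nr1d2* on 14.

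The genes most like *Arntl* over the 6 libraries, by Pearson's r of log2(CPM + 0.5) among genes that averaged 1 CPM or more, were *Efna4* (r = 0.998), *Galk1* (0.997) and *Plekhn1* (0.996). Those most like *Dbp* were *AU041133* (r = 0.992), *Pgr* (0.991) and *Tsn* (0.990). The libraries form 2 tissues, so a difference between them alone can raise r, and 601 genes had an r above 0.95 with *Arntl* and 138 with *Dbp*. The *Pgr* gene of the progesterone receptor was at 27.7, 36.2 and 12.9 CPM in the glands and at 12.7, 3.15 and 1.05 CPM in the tumors.

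Signals that set clocks in peripheral tissues were listed too. Of 8 genes of the glucocorticoid response, *Tsc22d3* among them, 4 were called lower and 1 higher, against 13.7% and 14.5% of all genes, with a median log2 fold change of -0.93. Their summed level was 504, 530 and 590 CPM in glands M11035, M11640 and M9232 and 319, 352 and 400 CPM in the tumors. The most abundant was *Nr3c1*, the glucocorticoid receptor gene, at 262, 318 and 270 CPM in the glands and 119, 133 and 140 CPM in the tumors (log2 fold change -1.11, adjusted p = 0.000397, limma). *Zbtb16* had the lowest log2 fold change, -4.36, and *Ddit4*, which also responds to hypoxia, the highest, 2.07, so the list did not move as one. Of 8 immediate early genes, which respond within minutes to stimuli and handling, 2 were called, *Egr2* and *Junb*, both higher in the tumors, against 28.2% of all genes called and 14.5% called higher. *Egr2* kept its call in 17 of 19 alternative fits (limma adjusted p = 0.00832, and 0.000224 to 0.106 over the alternatives). Their summed level was 83.2, 62.9 and 121 CPM in the glands and 119, 153 and 180 CPM in the tumors. The most abundant, *Egr1*, and the lowest by fold change, *Fosb*, were not called. *Junb*, with the highest log2 fold change of 1.72, lost its call without gland M11640 or M9232, tumor T11640 or T9232, and the whole mouse of either (log2 fold change 1.29 to 1.84, adjusted p = 0.0526 to 0.151 in these fits). The part of these signals in the clock gene values was not tested. The mouse gene *Atf3* was at 4.47, 8.09 and 22.6 CPM in the glands and at 13.4, 18.3 and 19.3 CPM in the tumors, where gland M9232 was above every tumor. It was not called (log2 fold change 0.80, adjusted p = 0.223, limma), and without gland M9232 the log2 fold change was 1.41 with an adjusted p of 0.00804 (0.00804 to 0.594 over the alternatives). Without gland M11035 the log2 fold change of *Atf3* was 0.30 (adjusted p = 0.594, limma), and in edgeR's quasi-likelihood test it was 0.52. Whether fragments of the ATF3 transgene are counted on this gene is not given in the sources used here. These values are therefore no measure of the transgene.

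Markers of cell types moved with the same comparison, and they check the labels of the tissues. All 10 adipocyte markers were called lower in the tumors, against 13.7% of all genes, with a summed level of 5380, 6933 and 3572 CPM in glands M11035, M11640 and M9232 and 176, 230 and 170 CPM in the tumors. *Fabp4* was the most abundant at 3795, 4979 and 2458 CPM in the glands and 146, 186 and 132 CPM in the tumors, *Adipoq* had the lowest log2 fold change (-7.00) and *Lipe* the highest (-3.23). All 8 markers of B and T lymphocytes were called lower in the tumors, again against 13.7% of all genes. Their sums were 583, 229 and 417 CPM in the glands and 16.6, 14.5 and 24.4 CPM in the tumors, led by *Ms4a1* (log2 fold change -6.10, with *Cd3g* the highest at -2.75). Of 8 markers of basal epithelium, 7 were called higher in the tumors, against 14.5% of all genes, with sums of 106, 126 and 157 CPM in the glands and 2410, 2890 and 2568 CPM in the tumors. *Krt5* was the most abundant of them at 913, 989 and 1055 CPM in the tumors, and *Dsg3* had the highest log2 fold change (7.48). *Dsc3*, the lowest at 1.53, was at 11.4 CPM in T9232 and was called without that tumor (log2 fold change 2.96, adjusted p = 0.00265, limma, against 0.272 with it and 0.00265 to 0.888 over the alternatives).

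Of 8 luminal markers, 3 were called higher and 3 lower, against 14.5% and 13.7% of all genes. Their sums were 454, 636 and 894 CPM in the glands and 441, 412 and 485 CPM in the tumors. *Prlr*, the most abundant, had the lowest log2 fold change (-3.11), and *Krt8* the highest (1.74), whose call was lost without the mouse of T11640 (adjusted p = 0.067, limma, within 7.36e-05 to 0.067). Of 6 fibroblast genes, the 3 collagens were called higher in the tumors, against 14.5% of all genes. The sums over the list were 917, 3615 and 1655 CPM in the glands and 8436, 9059 and 8652 CPM in the tumors. *Col3a1* was the most abundant, *Col1a1* the highest by log2 fold change (4.63) and *Pdgfra* the lowest (-0.23). Of 6 endothelial markers, 4 were lower in the tumor of every mouse (33.3% of all genes). Of these, 2 were called, *Tek* and *Kdr* (13.7% of all genes were called lower). The sums over the 6 markers were 352, 469 and 341 CPM in the glands and 199, 247 and 277 CPM in the tumors. *Pecam1* was the most abundant (log2 fold change -0.74, called at -1.01 without the mouse of T9232) and *Tek* the lowest (-1.35), *Kdr* at -1.004 kept its call in 12 of 19 alternative fits, and *Emcn* was the highest at 0.28 and was not called. Of 8 macrophage and neutrophil markers, 6 were higher in the tumor of every mouse (34.2% of all genes). Of these, 4 were called, *S100a8*, *S100a9*, *Csf3r* and *Itgam* (14.5% of all genes were called higher). *Csf1r*, *Emr1*, *Cd68* and *Cd14* had overlapping groups and were not called (limma adjusted p = 0.627, 0.29, 0.978 and 0.193). The sums over the 8 markers were 264, 327 and 527 CPM in the glands and 1119, 1478 and 1837 CPM in the tumors. *S100a9* was the most abundant, *S100a8* the highest by log2 fold change (4.34) and *Cd68* the lowest at 0.02.

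Skeletal muscle transcripts separated the glands. The 6 muscle markers summed to 4017, 1534 and 5.06 CPM in glands M11035, M11640 and M9232 and to 15.1, 7.60 and 14.1 CPM in the tumors, and *Acta1* and *Ckm* were at 0 in M9232. Of the 6, 2 were called lower (13.7% of all genes), *Myh1* (log2 fold change -4.76, limma adjusted p = 0.0496, call kept in 8 of 19 alternative fits) and *Mylpf* (-4.10, adjusted p = 0.0371, kept in 11). *Myh4* was the most abundant at 2779, 1107 and 0.958 CPM in the glands. It had the lowest log2 fold change, -6.80, which was not called by limma (adjusted p = 0.0557) but was called with the mouse as a block (adjusted p = 0.0199), in edgeR and in DESeq2, and without gland M9232 (-10.21, adjusted p = 8.16e-05, within 8.16e-05 to 0.357). *Tnnt3*, the highest at -3.17, was likewise called in edgeR, in DESeq2 and without M9232 (-5.51). It was not called in limma with the mouse as a block (adjusted p = 0.113). Its log2 fold change ran from -5.67 to -1.51 when libraries were left out. The summed levels of the adipocyte, lymphocyte and basal markers separated the tissues in every mouse. The part of these and of the muscle transcripts in the clock gene values was not tested.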

How the data were processed

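The RNA-Seq libraries of 3 mammary tumors and the 3 adjacent glands of the same mice were prepared by the authors with NuGEN's Ovation RNA-Seq System V2. According to the study's methods and the submitters' processing notes, the authors mapped read pairs to mm9 with TopHat2 2.0.3, counted fragments on RefSeq genes with HTSeq 0.5.3p9 and removed genes with fewer than 10 fragments in all. The authors deposited a normalized signal per gene, the CPM on edgeR's (3.6.1) effective library size, whose columns do not sum to 1 total. Divided by the value of 1 fragment, 100% of the entries were whole (tolerance 0.001), which gave back the fragments. The table's 6 libraries all entered, with 0 per-sample columns unused.

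The test was limma 3.58.1 in R 4.3.3, with its trend of variance on mean, run on log2(CPM + 0.5) after a check on simulated data. edgeR 4.0.16 and DESeq2 1.42.0 were run on the recovered fragments as alternatives. Other alternatives were the mouse as a block, a pseudocount of 0.1 or 1, a mean of at least 1 CPM and no trend. The rest were other scalings, the adjusted p alone, and leaving out each library or mouse. The mouse numbers pair the samples, since both tissues came from the same animal. Over 14712 genes, the deviations of gland and tumor from their group means correlated with r = 0.107 for M11035 and T11035, 0.151 for M11640 and T11640, and 0.0168 for M9232 and T9232. For a gland and a tumor of different mice, r ran from -0.168 (M11035 and T11640) to 0.0405 (M9232 and T11640). No library was a copy of another, as 2 libraries of a tissue differed by a chi-square of at least 13.0 per degree of freedom.

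The clock genes and the gene lists were chosen with earlier results of these data known. Named genes are the 10 members, the other clock and output genes, *Atf3*, the 3 genes most like *Arntl* and *Dbp*, and the most abundant, highest and lowest gene of each context and marker list. *Thra*, *Sphk2*, *D930015M05Rik*, *Egr2*, *Kdr*, *Csf3r*, *Itgam*, *Csf1r*, *Emr1*, *Cd14*, *Myh1*, *Mylpf*, *Acta1* and *Ckm* were named after their values were seen. Of the other clock genes planned, 2 are not reported here. Positions and exon lengths came from GENCODE vM1 (mm9) and promoters from RefSeq (GRCm38.p6). Of 41 genes searched with BLAST 2.17.0, none had a near-identical copy elsewhere, while 7 had exons overlapping another gene of the table.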

Additional observations from a re-analysis of the deposited data

How the results depend on the processing

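Of the 10 clock genes, *Per2*, *Per3*, *Cry2* and *Arntl* kept their direction and call in all 19 alternative fits. *Nr1d1* kept its call in 18 and *Dbp* in 5, and *Per1*, *Cry1*, *Clock* and *Nr1d2* were not called in any. With all libraries and the fold threshold, the count of called clock genes was 5 or 6 over the settings, and by the adjusted p alone it was 7. It was 4 to 6 when libraries were left out, with 3 to 5 lower. With the mouse as a replicate block 5 clock genes and 8 of the other clock genes were called, and the block changed no other call among these genes than that of *Dbp*. The count of other clock genes called, 8 of 25, stayed at 8 in the settings with all libraries and the fold threshold. It was 12 by the adjusted p alone and 5 to 9 when libraries were left out. The count over all genes, 4309, was 4031 to 6289 in the settings with all libraries and 3180 to 4374 when libraries were left out. Other scalings moved the median of all genes by -0.013 (plain totals) and by 0.0057 (DESeq2 size factors).

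Some log2 fold changes changed sign between settings, and the cause was not tested. In the main fit these ran from values near 0 to -0.48 for *Gm129*. *Usp2* was 0.0051 in edgeR with the replicate block and *Tspan4* was -0.0046 with plain totals. *Fosb* was -0.18 in edgeR and -0.12 in DESeq2, and *Cd68* was -0.036 and -0.029. When libraries were left out, the log2 fold change ran from -0.14 to 0.065 for *Clock*, -1.32 to 0.94 for *Rorb*, -1.01 to 0.20 for *Gm129*, -0.17 to 0.070 for *Gsk3a*, -0.094 to 0.44 for *Timeless*, -0.39 to 0.48 for *Usp2*, -0.31 to 0.38 for *Tspan4*, -0.28 to 0.89 for *Fosb*, -0.54 to 0.11 for *Pdgfra* and -0.41 to 0.43 for *Cd68*. The difference of *Dbp* minus *Arntl* between tissues stayed between -3.08 and -2.37. Few fragments limit *Dbp* and *Fbxl21*, and 3 mice of 1 sampling each limit all of these results.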
